A study of Homo sapiens with 6 samples.

Results

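Subtelomeric CTCF and cohesin peaks were the peaks on chromosomes 1 to 22 whose summit lay within 1 Mb of either end of the chromosome by its GRCh38 length. They numbered 1478 of the 64894 peaks that the 6 lists held on these chromosomes, which is 2.28% of the peaks on 1.36% of the length. All 6 titles begin with I79, a code that they do not explain. The lists came from CUT&Tag of IMR90, a widely used strain of fetal lung fibroblasts that divides a limited number of times. In this assay a transposase is tethered to an antibody on chromatin, and the fragments it releases around the bound protein are sequenced. Antibodies against CTCF and SMC1 were each applied to control cells of low passage, to ICM-treated cells (inflachromene, a compound that binds the HMGB1 and HMGB2 proteins) and to high-passage cells that had reached replicative senescence. For CTCF the p number of the titles was 21 in the control, 16 in the ICM-treated cells, which were treated for 6 days, and 34 in the senescent cells. For SMC1 it was 16, 16 and 34, and the days of treatment were not labelled. Each group was 1 library, so the conditions were described and not tested, and for CTCF the p number also differed between control and ICM-treated cells. All intervals are exact 95% intervals that cover counting over peaks only and not the variation between cultures. The number of reads behind each list is unknown here beyond a minimum per sample in the study's methods. These methods also limit the CTCF peaks used to those with a CTCF motif, and whether the lists analysed here are from before or after that step is not clear, which bears on the CTCF counts, on their overlap with SMC1 and on motif shares.

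CTCF binds DNA through its zinc fingers and acts as an insulator. Cohesin is a ring-shaped complex with SMC1 as one of its subunits, which extrudes chromatin loops and is stopped at CTCF sites. The outermost part of a chromosome arm holds telomere repeats, then blocks of sequence that many chromosome ends share, then gene-rich single-copy DNA. CTCF and cohesin are known to bind subtelomeric DNA and to take part in keeping chromosome ends intact, and telomere shortening is the trigger of replicative senescence. The short arms of chromosomes 13, 14, 15, 21 and 22 have no mapped sequence in this window and held no peak, which left 39 ends and 39 Mb.

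To show the DNA under peaks that every library held, promoter windows from RefSeq (GRCh38.p14, 250 bases before to 50 after a gene start, thus 300 bases) were searched for the summit of a locus in all 3 lists of both antibodies. A locus here is a set of peaks whose 100 bp summit windows overlap. On the autosomes whose promoters were analysed here, 3 promoters met this rule, those of RAD52 (chr12:949645-949944, minus strand), GEMIN4 (chr17:752215-752514, minus strand) and LIAT1 (chr17:410075-410374, plus strand). RAD52 acts in repair of DNA by homologous recombination, GEMIN4 belongs to the SMN complex that assembles splicing particles, and LIAT1 binds the arginyltransferase ATE1. Capitals mark the stretch between the outermost of the 6 summits.
RAD52: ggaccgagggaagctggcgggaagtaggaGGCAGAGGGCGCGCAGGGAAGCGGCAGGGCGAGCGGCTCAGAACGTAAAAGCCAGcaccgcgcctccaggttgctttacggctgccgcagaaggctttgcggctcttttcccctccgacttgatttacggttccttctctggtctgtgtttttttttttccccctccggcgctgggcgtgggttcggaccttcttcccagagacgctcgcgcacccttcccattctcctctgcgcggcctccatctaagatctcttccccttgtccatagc
GEMIN4: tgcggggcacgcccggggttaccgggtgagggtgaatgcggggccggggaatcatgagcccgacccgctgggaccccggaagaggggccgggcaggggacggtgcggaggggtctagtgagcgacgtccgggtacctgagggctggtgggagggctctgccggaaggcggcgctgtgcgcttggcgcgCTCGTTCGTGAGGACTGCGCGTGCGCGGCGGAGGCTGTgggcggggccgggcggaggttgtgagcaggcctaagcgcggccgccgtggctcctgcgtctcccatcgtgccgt
LIAT1: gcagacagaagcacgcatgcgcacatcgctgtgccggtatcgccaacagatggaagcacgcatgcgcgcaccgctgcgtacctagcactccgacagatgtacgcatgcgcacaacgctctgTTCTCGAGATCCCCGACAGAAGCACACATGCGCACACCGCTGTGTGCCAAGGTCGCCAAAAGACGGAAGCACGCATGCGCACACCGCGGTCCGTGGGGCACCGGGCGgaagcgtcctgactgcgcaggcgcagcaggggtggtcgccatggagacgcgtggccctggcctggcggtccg

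In the RAD52 promoter the 3 CTCF summits lay at positions 30 to 31 and the 3 SMC1 summits at positions 73 to 84, counted from 1 at the 5′ end of the printed strand. In GEMIN4 the 3 CTCF summits were all at position 201, and the SMC1 summits at 226, 201 and 189 in the control, ICM and senescent lists. In LIAT1 they were spread more widely, with CTCF summits at 203, 167 and 228 and SMC1 summits at 122, 166 and 169. The rank of these peaks, given as the percentile of total signal within the own list, differed between the antibodies. RAD52 was high for both. In the control, ICM and senescent lists its percentiles were 89.2, 93.7 and 94.2 by the CTCF antibody and 98.0, 96.2 and 77.7 by the SMC1 antibody. GEMIN4 ranked at 69.4, 78.2 and 75.01 for CTCF and at only 31.5, 27.4 and 2.13 for SMC1. LIAT1 had the opposite order, with 47.3, 54.3 and 43.3 for CTCF and 98.7, 98.4 and 88.9 for SMC1.

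None of the 3 windows held CCANNAGNNGGC, the 12 letters taken here as the core of the CTCF motif, on either strand. Only exact matches were counted, so a window without these letters can still hold another form of the motif. The letters were found in 820 of 33725 promoter windows of these autosomes (2.43%) and in 24 of 1039 subtelomeric ones (2.31%). Among the 19 windows that held the summit of a subtelomeric CTCF locus in all 3 lists, 2 had them, those of LRRC56 (chr11:518738-519037) and PRPF6 (chr20:63980882-63981181), both on the plus strand. LRRC56 encodes a leucine-rich repeat protein of cilia, and PRPF6 encodes a splicing factor of the tri-snRNP. Both are shown, chosen after their values were seen, with the core in capitals. LRRC56 held it once on each strand, without overlap, and PRPF6 once.
LRRC56: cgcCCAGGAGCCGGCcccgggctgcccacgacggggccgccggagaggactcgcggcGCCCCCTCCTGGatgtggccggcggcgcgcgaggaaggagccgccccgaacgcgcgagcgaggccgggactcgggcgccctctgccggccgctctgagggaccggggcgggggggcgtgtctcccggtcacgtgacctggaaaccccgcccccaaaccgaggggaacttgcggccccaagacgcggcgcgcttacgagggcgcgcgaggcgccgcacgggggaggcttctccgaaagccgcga
PRPF6: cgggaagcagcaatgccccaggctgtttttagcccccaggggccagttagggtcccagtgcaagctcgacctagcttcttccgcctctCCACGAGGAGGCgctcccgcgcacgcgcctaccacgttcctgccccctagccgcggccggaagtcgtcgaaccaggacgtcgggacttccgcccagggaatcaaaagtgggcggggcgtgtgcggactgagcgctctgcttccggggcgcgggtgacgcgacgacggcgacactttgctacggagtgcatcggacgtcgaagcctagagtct

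At LRRC56 the CTCF summit lay 4 bases from the centre of the core on the minus strand in the control list and 22 bases from the centre of the other core in the ICM and senescent lists, and its percentile of total signal was 35.01, 46.1 and 88.2. At PRPF6 the summits were 32, 36 and 36 bases from the core, with percentiles of 46.7, 21.9 and 44.6. None of the 54 windows that held the summit of a subtelomeric SMC1 locus in all 3 lists had the core. The LIAT1 window held GCATGCGC, 8 letters of the consensus of the transcription factor NRF1, 4 times when both strands were searched. These letters occurred at least once in 3.00% of all promoter windows and 4 or more times in 18 of them. They were not chosen in advance, and the 4 copies lie in similar stretches of the window, so they are not separate finds. A match of letters describes the sequence and shows no binding of a factor.

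Peaks of both antibodies were denser near chromosome ends than farther inside. CTCF had 106 subtelomeric peaks of 4606 in the control, 165 of 6635 in the ICM and 202 of 8478 in the senescent list, or 2.72, 4.23 and 5.18 per Mb. SMC1 had 339 of 14703, 351 of 17644 and 315 of 12828, or 8.69, 9 and 8.08 per Mb. The density of CTCF peaks relative to the rest of the chromosomes was 1.71 (interval 1.40 to 2.07) in the control, 1.85 (1.58 to 2.16) in the ICM and 1.77 (1.53 to 2.04) in the senescent list. For SMC1 it was 1.71 (1.53 to 1.91), 1.47 (1.32 to 1.64) and 1.83 (1.63 to 2.04). All 6 intervals lay above 1. Within each antibody the intervals of the 3 conditions overlapped, those of SMC1 in the ICM and senescent lists only between 1.63 and 1.64. The difference between 106 CTCF peaks in the control and 202 in the senescent list stood beside 4500 and 8276 interior peaks.

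No excess was seen next to the end itself, where the interior density lay within the intervals of all 6 lists. In the outermost 100 kb CTCF had 1.28 peaks per Mb in the control list (5 peaks, interval 0.416 to 2.99), 3.08 in the ICM list (12 peaks) and 3.33 in the senescent list (13 peaks). Its density was 3.44, 5.03 and 5.79 per Mb between 500 kb and 1 Mb, highest between 1 and 2 Mb at 4.21, 5.23 and 7.13, and 2.09, 3.08 and 4.16 between 5 and 10 Mb. SMC1 had 4.62, 5.90 and 3.85 peaks per Mb in the outermost 100 kb, 10.1, 10.4 and 9.03 between 500 kb and 1 Mb, and 6.33, 7.50 and 5.71 between 5 and 10 Mb. The limit of 1 Mb thus cut through a dense stretch. The 100 kb just inside it held 14, 18 and 24 CTCF peaks and 38, 38 and 35 SMC1 peaks, and the 100 kb just outside held 12, 15 and 26, and 35, 38 and 32.

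**Figure D1:**
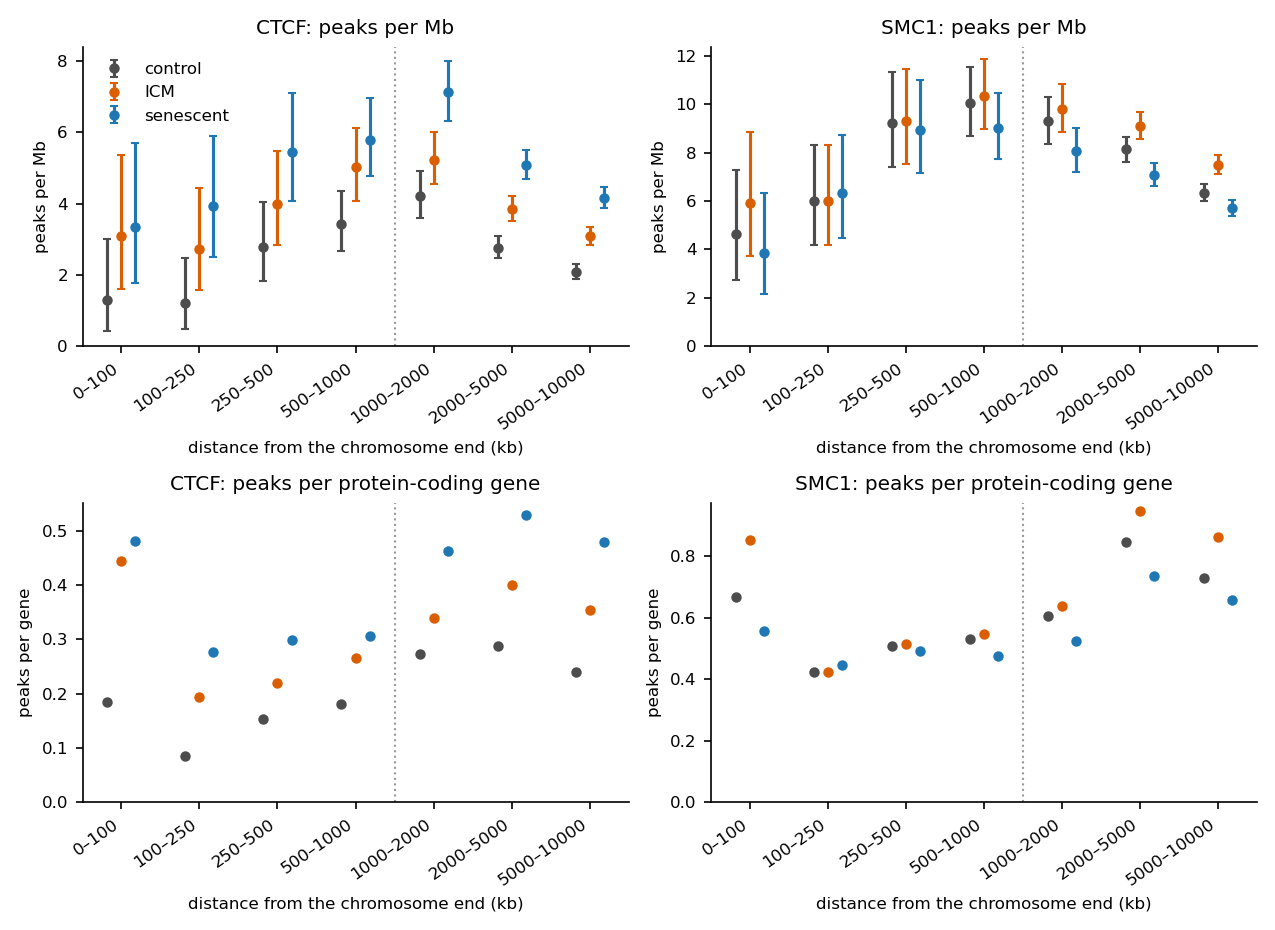
Peaks per Mb (top) and peaks per protein-coding gene (bottom) in 7 bins of distance from the nearest chromosome end in kb, for CTCF (left) and SMC1 (right), with control in grey, ICM in orange and senescent in blue, exact 95% Poisson intervals as bars in the top row and the 1 Mb limit as a dotted line. CTCF density is highest between 1 and 2 Mb, and SMC1 density is highest between 500 kb and 1 Mb, in all 3 conditions.

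Subtelomeres are rich in genes, and over the whole window the peaks were fewer relative to genes than inside. The 39 Mb held 657 protein-coding genes (16.8 per Mb) against 6.47 per Mb over the rest, which is 2.60 times as many. CTCF had 0.161, 0.251 and 0.307 peaks per protein-coding gene in the control, ICM and senescent lists, against 0.246, 0.353 and 0.452 inside, so the ratio was 0.657 (0.536 to 0.796), 0.711 (0.605 to 0.830) and 0.680 (0.589 to 0.782). SMC1 had 0.516, 0.534 and 0.479 against 0.784, 0.944 and 0.683, with ratios of 0.658 (0.589 to 0.733), 0.566 (0.508 to 0.629) and 0.702 (0.626 to 0.785). The direction of the comparison with the interior therefore turned with the unit, above 1 per Mb and below 1 per gene, in all 6 lists. In the outermost 100 kb, where only 27 such genes lay, CTCF had 0.185, 0.444 and 0.481 peaks per gene. There the ICM and senescent values were above those inside, and the control value was below. SMC1 had 0.667, 0.852 and 0.556 there, below the values inside.

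A promoter peak had its summit within 1 kb of the outermost 5′ end of an annotated gene. They made up 42.5% of the subtelomeric CTCF peaks in the control, 41.8% in the ICM and 29.7% in the senescent list, against 38.5%, 37.3% and 24.4% inside, and the interior value lay within the interval of the subtelomeric share in all 3. For SMC1 the shares were 48.4% (42.9 to 53.8), 41.9% (36.7 to 47.2) and 45.7% (40.1 to 51.4), against 41.8%, 31.6% and 34.1%, all below the intervals. Peaks farther than 1 kb from any such outermost 5′ end were also denser near the chromosome ends, by 1.60, 1.72 and 1.65 times for CTCF and by 1.52, 1.25 and 1.50 times for SMC1. Some of these may lie at other promoters of a gene.

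Seen from the genes, fewer subtelomeric promoters carried a peak. Of 645 protein-coding genes with a 5′ end in the window, 45 had a CTCF promoter peak in the control list (6.98%, against 9.16% of the genes farther inside), 73 in the ICM list (11.3% against 13.2%) and 56 in the senescent list (8.68% against 10%). SMC1 marked 160 of them in the control list (24.8%, interval 21.5 to 28.3, against 33.3%), 143 in the ICM list (22.2%, 19.0 to 25.6, against 29.3%) and 145 in the senescent list (22.5%, 19.3 to 25.9, against 23.5%). The interior share lay above the interval for SMC1 in the control and ICM lists and within it in the other 4, close to the upper bound of 9.22% for CTCF in the control list. Of the 645 genes 422 had no promoter peak in any list (65.4%, interval 61.6 to 69.1, against 59.9% inside), 202 had one in at least 1 SMC1 list (31.3%, 27.8 to 35.1, against 38.2%) and 89 in at least 1 CTCF list (13.8%, 11.2 to 16.7, against 14.9%). Since only the outermost 5′ end was used, the 422 include genes with a peak at another of their promoters, such as ZBTB45.

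A promoter peak in all 6 lists was found at 19 genes (2.95%, interval 1.78 to 4.56, against 4.96% inside). They included PTK6 at 20q, a tyrosine kinase, and RUBCN and FYTTD1 at 3q, an autophagy regulator and an mRNA export factor with neighbouring 5′ ends. SEPTIN2 and HDLBP at 2q, TMEM18 at 2p, SCO2 at 22q (an assembly factor of cytochrome c oxidase), TIMM22 at 17p (a mitochondrial inner-membrane translocase) and MZF1 at 19q (a zinc-finger transcription factor) were among them. In all 3 SMC1 lists and no CTCF list, 47 genes had a promoter peak (7.29%, 5.40 to 9.57, against 9.52% inside). They included RTEL1 at 20q, a helicase that acts in telomere maintenance, NCAPG2 at 7q, a condensin II subunit, and ANKRD11 at 16q, a chromatin regulator. Of 26 genes of the 19q window with a ZNF symbol, which encode zinc-finger proteins, 6 were in this class (ZNF417, ZNF8, ZNF497, ZNF837, ZNF132 and ZNF446) and 11 had no promoter peak in any list. Over all 645 genes of the window, 47 (7.29%) were in this class and 422 (65.4%, against 59.9% inside) had no promoter peak. The ZNF genes thus lacked a promoter peak less often than the window as a whole, which was not tested. The converse, all 3 CTCF lists and no SMC1 list, held for 7 genes (1.09%, 0.437 to 2.22, against 0.590% inside), among them PANO1 and SLC25A22 at 11p, RHOT2 at 16p and PRPF6, SAMD10 and TCEA2 at 20q. The genes named in this paragraph were chosen after their values were seen.

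The peaks were unevenly spread over the 39 ends. In the control, ICM and senescent lists the median end had 2, 3 and 4 CTCF peaks and 7, 8 and 6 SMC1 peaks, and the 10 richest ends held 58.5%, 59.4% and 53.5% of the CTCF and 52.8%, 50.1% and 52.7% of the SMC1 peaks. Between 23 and 28 of the 39 ends were denser than the interior of the same list. The end of 14q had no peak in any list and no protein-coding gene, and 29 ends had a peak in all 6 lists. Summed over the 3 lists, the most CTCF peaks were at 8q, with 12, 15 and 12 in the control, ICM and senescent lists, followed by 11p with 7, 11 and 14 and 16p with 8, 12 and 12. Promoter windows of chromosome 8 were not analysed here, so the 8q loci were not searched for motifs. By the same sum the most SMC1 peaks were at 19q, with 23, 21 and 22, followed by 11p with 19, 17 and 21 and 13q with 22, 19 and 15. The end of 11p was thus among the 3 richest for both antibodies, and 16p, 8q, 20q and 22q also had at least 25 CTCF and 44 SMC1 peaks over the 3 lists.

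The end of 13q had no CTCF peak in the control list and 3 in each of the others beside its 22, 19 and 15 SMC1 peaks. At 12p CTCF had 3 peaks in the control, 4 in the ICM and 11 in the senescent list, while SMC1 had 6, 8 and 6. At 10p SMC1 had 7, 11 and 2. Counts per end are small, and differences of a few peaks lie within the counting error. Across the 39 ends the number of peaks went with the number of protein-coding genes, with Spearman's rho of 0.735, 0.828 and 0.773 for CTCF and 0.727, 0.687 and 0.812 for SMC1, as a description of ends that share each library. Summed over conditions, CTCF and SMC1 counts had a rho of 0.778.

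**Figure D2:**
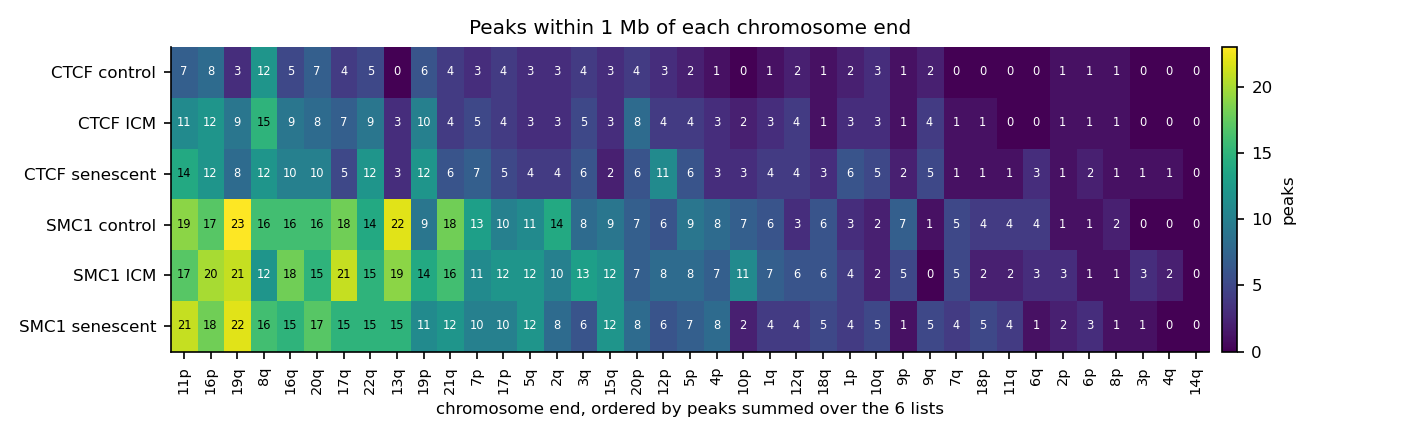
Number of peaks within 1 Mb of each of the 39 chromosome ends (columns, ordered by the sum over all lists) in the 6 lists (rows); colour and printed figure give the same count. Both antibodies have many peaks at 11p and 16p, 13q has 22, 19 and 15 SMC1 peaks but 0, 3 and 3 CTCF peaks, and 14q has none.

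By total signal, which is coverage summed over the peak, subtelomeric peaks ranked like the rest. Their median percentile was 48.0, 49.8 and 48.7 in the control, ICM and senescent CTCF lists and 49.1, 47.8 and 50.7 in the SMC1 lists, and the interior median, between 49.9 and 50.04, lay within each interval. By highest signal, the coverage at the summit, they ranked lower in all 6 lists. The medians were 44.1 (29.4 to 58.8), 38.0 (29.4 to 46.1) and 43.5 (37.9 to 51.0) for CTCF against 50.4, 50.1 and 51.0 inside, and 39.9 (34.98 to 44.4), 41.3 (34.95 to 41.3) and 40.0 (40.0 to 49.6) for SMC1 against 48.7, 47.5 and 49.6. Highest signals in the SMC1 lists were small whole numbers with many ties, which is why some bounds fall on the median itself. The interior median lay above the interval for CTCF in the ICM list and for SMC1 in the control and ICM lists.

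The median width was 1882, 2150 and 1192.5 bases for subtelomeric CTCF peaks in the control, ICM and senescent lists, against 1798.5, 1959.5 and 1119.5 inside, and 955, 836 and 1052 bases for SMC1, against 910, 753 and 1004. The interior width lay within the interval for CTCF in the control (1686 to 1996) and senescent (1112 to 1279) lists and below it in the other 4. By highest signal, 15.1%, 13.9% and 16.3% of the subtelomeric CTCF peaks and 12.7%, 13.4% and 13.3% of the SMC1 peaks ranked below the percentile of 10, against 9.67%, 9.85% and 10.6%, and 9.76%, 8.45% and 7.73% inside. At the other extreme, 12.3%, 13.3% and 12.4% of the CTCF peaks but 8.85%, 7.41% and 8.89% of the SMC1 peaks ranked at 90 or above, against 10%, 9.91% and 9.78%, and 10.4%, 10.3% and 9.53% inside.

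**Figure D3:**
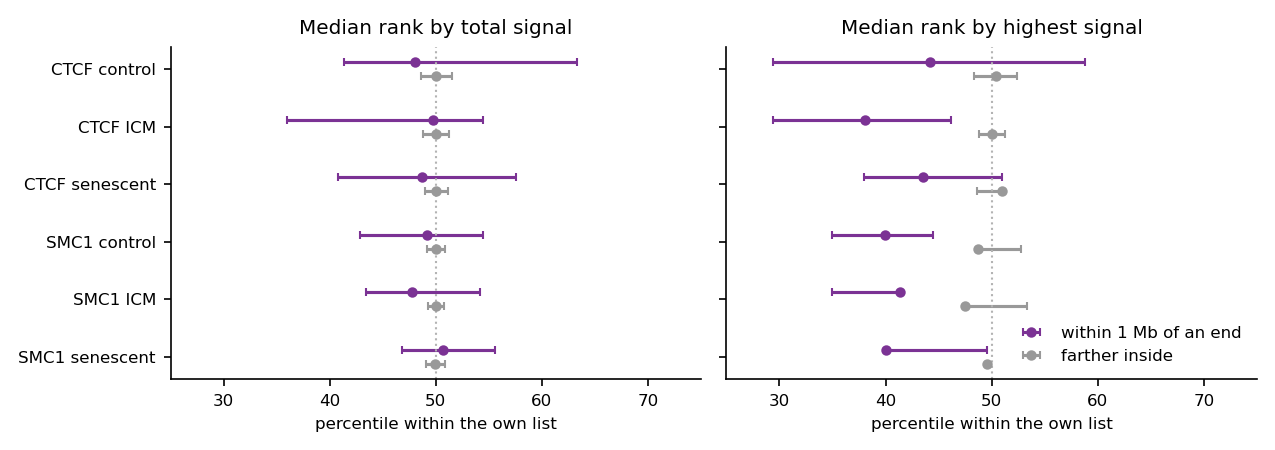
Median percentile of peaks within their own list, by total signal (left) and by highest signal (right), for the 6 lists, within 1 Mb of an end (purple) and farther inside (grey), with 95% order-statistic intervals. The purple medians sit between 47.8 and 50.7 on the left and between 38.0 and 44.1 on the right.

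Next, the sharing of peaks between conditions was compared with that farther inside. CTCF loci numbered 275, of which 71 were in all 3 lists (25.8%, against 26.9% inside), 87 in the senescent list alone (31.6% against 31.8%), 48 in the ICM list alone (17.5% against 13.98%), 34 in the ICM and senescent lists (12.4% against 13.1%) and 13 in the control list alone (4.73% against 5.41%). The 71 loci covered 67.0% of the control peaks (57.2 to 75.8, against 65.6% inside), 43.0% of the ICM peaks (35.4 to 51.0, against 45.6%) and 35.1% of the senescent peaks (28.6 to 42.2, against 35.7%). Of the 165 ICM peaks, 105 were also in the senescent list (63.6%, against 66.6%) and 83 in the control list (50.3%, against 53.6%). The interior shares lay within all of these intervals, and no difference was detectable at these counts.

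SMC1 loci numbered 620, of which 118 were in all 3 lists (19.0%, against 20.3% inside). These covered 34.8% of the control peaks (29.7 to 40.1, against 37.7% inside), 33.6% of the ICM peaks (28.7 to 38.8, against 31.3%) and 37.5% of the senescent peaks (32.1 to 43.1, against 43.3%). The interior share lay above the interval for the senescent peaks and within it for the control and ICM peaks. Loci in the senescent list alone made up 20.8% of the SMC1 loci (129 of 620, interval 17.7 to 24.2), against 17.3% inside. Of the 351 ICM peaks, 194 were also in the control list (55.3%, against 54.4%) and 140 in the senescent list (39.9%, against 38.2%). Thus ICM peaks near chromosome ends were shared more often with senescent than with control cells for CTCF and the reverse for SMC1, as farther inside. For CTCF this order turned when the 3 lists were cut to equal length by total signal, with 65.1% of the ICM peaks then in the control list and 53.8% in the senescent list. Read from the other lists, subtelomeric SMC1 peaks were found less often in ICM cells, with 57.2% of control peaks (51.8 to 62.6, against 65.5% inside) and 44.4% of senescent peaks (38.9 to 50.1, against 52.7%). Loci in the control and senescent lists but not the ICM list made up 6.45% of the SMC1 loci (40 of 620, interval 4.65 to 8.68), against 3.64% inside. Of these 40 loci, 17 overlapped a whole ICM peak whose summit was elsewhere (42.5%, with no interior share at hand).

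A locus that a list lacked by the summit rule could still lie under a whole peak of that list. Of the 87 CTCF loci in the senescent list alone 11 overlapped whole peaks in both other lists, and of the 13 in the control list alone 6 did. Overlap with a whole peak of at least 1 other condition was near the interior share. It was 24.1% against 23.9% for the senescent list and 84.6% (54.6 to 98.1) against 88.2% for the control list. When whole peaks of all 6 lists were joined where they overlapped, 562 subtelomeric regions resulted. Of these 52 were in all 6 lists (9.25%, interval 6.99 to 11.96, against 9.96% inside), 97 were in the 3 SMC1 lists and in no CTCF list (17.3% against 17.0%), 13 were in the 3 CTCF lists and no SMC1 list (2.31% against 1.93%) and 191 were in 1 list only (33.99% against 34.1%). Over the 71 CTCF loci of all 3 lists, Spearman's rho of total signal was 0.760 for the control and ICM lists, 0.585 for the ICM and senescent lists and 0.583 for the control and senescent lists. Over the 118 SMC1 loci it was 0.728, 0.570 and 0.564, given as a description.

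Some CTCF peaks near chromosome ends had an SMC1 peak at the same summit. Their share was 47 of 106 in the control (44.3%, interval 34.7 to 54.3, against 49.3% inside), 57 of 165 in the ICM list (34.5%, 27.3 to 42.3, against 47.2%) and 64 of 202 in the senescent list (31.7%, 25.3 to 38.6, against 35.1%). The interior share lay above the interval in the ICM list alone, and whether the 3 conditions differ in this was not tested. With whole peaks in place of summits, the shares were 67.9%, 63.6% and 50.5%, against 76.3%, 73.1% and 50.4% inside. Which lists passed depended on the setting. With lists of equal length none did, and the ICM share was 39.6% (30.3 to 49.6, against 44.5%). With a window of 500 kb the ICM share was 37.3% (25.8 to 49.99, against 47.0%), and only the senescent share, 24.7% (16.2 to 34.999, against 35.1%), had the interior value above its interval. With 2 Mb this held in all 3 lists, at 40% (34.1 to 46.1, against 49.7%), 36.6% (31.7 to 41.7, against 47.5%) and 30.4% (26.3 to 34.7, against 35.3%). In the other direction 13.9%, 16.2% and 20.3% of subtelomeric SMC1 peaks had a CTCF peak, against 15.4%, 17.7% and 23.2%.

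**Figure D4:**
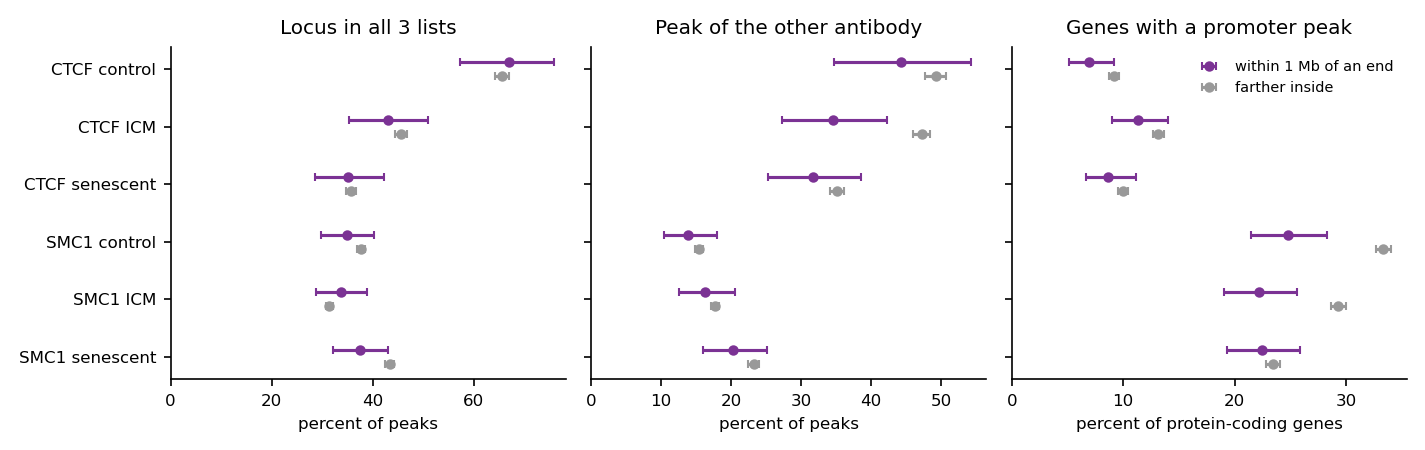
Share of peaks whose locus was in all 3 lists of the antibody (left), share of peaks with a peak of the other antibody in the same condition (middle) and share of protein-coding genes with a promoter peak (right), in percent, within 1 Mb of an end (purple) and farther inside (grey), with exact 95% binomial intervals. The largest gap in the middle panel is that of CTCF in the ICM list, 34.5% against 47.2%, and in the right panel that of SMC1 in the control list, 24.8% against 33.3%.

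Apart from the mitochondrial-like pseudogenes of 1p, the region of highest mean rank among those in all 6 lists lay at ZBTB45 on 19q (chr19:58518026-58520878), a gene for a zinc-finger protein with a BTB domain, 97.8 kb from the end. Its best percentile of total signal was 99.6, 99.7 and 99.8 in the control, ICM and senescent CTCF lists and 98.9, 99.4 and 99.9 in the SMC1 lists. The CTCF summit moved within it, from 58519573 in the control list to 58519682 and 58519687 in the ICM and senescent lists, so that the summit rule put it in 2 loci. The SMC1 summits lay farther along, at 58519868, 58519962 and 58519868, in the RefSeq promoter window of ZBTB45. Next came the region at TPGS1 on 19p, which encodes a subunit of the tubulin polyglutamylase complex, with 99.0, 98.9 and 99.0 for CTCF and 96.3, 95.1 and 97.1 for SMC1. Here also the senescent CTCF summit, 506898, was set apart from the shared control and ICM summit at 507101.

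At the distal part of 8q, the CTCF locus within SLC33A2 was second by mean percentile among the loci that all 3 CTCF lists held. Its percentiles were 99.1, 98.9 and 99.6 in the control, ICM and senescent lists. By the summit rule it had an SMC1 peak in each condition. The SMC1 summits of the control list (85.8) and the senescent list (99.0) were at the same base. The ICM SMC1 summit was set apart from these but lay within 100 bp of the ICM CTCF summit. ZNF250, a zinc-finger gene 237 kb from that end, had CTCF peaks of percentiles 95.6, 98.2 and 97.7 whose summits lay 501, 254 and 7 bases from its 5′ end in the control, ICM and senescent lists. Each therefore counted as a peak of 1 list, although all overlapped. PPP1R16A, a regulatory subunit of protein phosphatase 1, had a CTCF summit at the same base in control and senescent cells, with percentiles of 78.7 and 88.4. On 20q a CTCF locus 6933 bases from the 5′ end of the pseudogene CICP4 had its summit at the same base, 64286107, in all 3 lists, and percentiles of 94.0, 98.8 and 99.9.

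For CTCF, the other loci named by rank were at METRN on 16p, with percentiles of 89.4 and 92.7 in the ICM and senescent lists and, at a summit about 1 kb away, 90.3 and 69.9 in the control and senescent lists. NINJ2 on 12p, an adhesion molecule, had 90.6 and 95.9 in the control and ICM lists, and TIMM22 on 17p had 91.8 in the ICM list alone. Each of these overlapped a whole peak of the lists that lacked its summit, so none was a region that only 1 condition held.

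For SMC1, the highest locus after the mitochondrial-like one on 1p lay in DRC4 on 16q, a gene for a subunit of the dynein regulatory complex of cilia. Its percentiles of total signal were 99.99, 99.99 and 99.9 in the control, ICM and senescent lists, and no CTCF peak shared its summit in any condition. On 13q, RASA3, a GTPase-activating protein of the Ras family, had an SMC1 locus of the control and ICM lists with percentiles of 99.0 and 99.0, and GAS6, the ligand of the TAM receptor kinases, had one with 95.4 and 94.7. Loci of the ICM and senescent lists were led by NINJ2, with 98.4 and 94.8, and by ZSCAN22 on 19q, with 95.2 and 97.6. METRNL on 17q, a gene for a secreted factor, had 96.3 and 88.3 in the control and senescent lists, and an ICM summit of percentile 97.1 at 83083682, just outside the summit window of the others at 83083806. Single-list loci of high rank were at MZF1 (97.1, control), PCBP3 on 21q (97.7, ICM), SPG7 on 16q, which encodes a mitochondrial protease (97.6, senescent), and ZNF329 on 19q (96.3, senescent). These too overlapped whole peaks of the other lists.

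The 52 regions in all 6 lists lay between 44.5 and 997 kb from an end, with a median of 632 kb, at 22 of the 39 ends, and 25 of them had their highest summit within 1 kb of a 5′ end (48.1%, with no interior share at hand). The 8q end held 6, 11p held 5 and 22q held 4. Among them were some whose rank differed widely between the lists. IFITM3 on 11p, an interferon-induced antiviral gene, had CTCF percentiles of 7.16, 77.5 and 69.0 and SMC1 percentiles of 57.1, 79.7 and 86.6 in the control, ICM and senescent lists. A region 267 kb from the 19p end had 47.0, 89.6 and 96.9 for CTCF and 13.5, 63.3 and 85.6 for SMC1. TMEM18 on 2p had 66.9, 68.8 and 44.2 for CTCF and 99.1, 97.6 and 96.3 for SMC1. These are ranks in 1 library each, chosen after the values were seen.

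Close to the telomere few peaks were found. The outermost CTCF peak was 11.4 kb from the end of 9p, in the senescent list only, 583 bases from the 5′ end of DDX11L5, with a percentile of 0.431 by total and 87.7 by highest signal. The next were at 19q, at CENPBD2P 36.4 kb from the end in the ICM and senescent lists with percentiles of 19.1 and 86.2, and in MZF1 44.4 kb from it in the ICM list (42.2) and 44.5 kb in the control list (5.19). For SMC1 they were at PGBD2 on 1q, 29.9 kb from the end in the ICM list with 0.451, at the 5′ end of RABL2B on 22q, 34.8 kb from the end in the control list with 13.0, and at CENPBD2P, 36.3 kb from the end, in all 3 lists with 20.5, 43.4 and 58.6 in the control, ICM and senescent lists.

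Among the gene families of the shared subtelomeric blocks, few or no members had a peak in the gene or within 1 kb. The share of all genes by this rule is not at hand, so the counts are a description. By the promoter rule, 65.4% of the 645 protein-coding genes of the window had no peak in any list, against 59.9% inside. No member had a peak in any list among 7 WASH, 6 MIR1302, 5 FAM138, 17 OR4F (olfactory receptor) and 24 DUX4 (double homeobox) genes. Among 6 DDX11L members only DDX11L5 had one, in the senescent CTCF list. TUBB8 on 10p, a beta-tubulin, had CTCF peaks in the ICM and senescent lists, 1 of 5 genes of its name. Of 16 RPL23AP pseudogenes, RPL23AP5 had an SMC1 peak in the ICM list and RPL23AP82 in the control list. FRG1 on 4q and its divergent transcript FRG1-DT each had a CTCF peak in the senescent list and an SMC1 peak in the ICM list. Members of these families are near-identical copies, and how reads that fit several of them were treated is not given in the sources used here. An empty family therefore says only that the lists hold no peak there.

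The mitochondrial-like pseudogenes on 1p were the exception, since 6 of the 7 had a peak within 1 kb in all 6 lists. There were 2 peaks in each list, in MTND2P28 (summit at 629942 or 629943) and in MTATP6P1 (summit at 634029, or 634030 in the SMC1 ICM list). By highest signal the MTATP6P1 peak was the first of all peaks on chromosomes 1 to 22 in all 6 lists. The MTND2P28 peak followed at rank 3, 50 and 2 for CTCF and 3, 2 and 2 for SMC1. These genes are nuclear copies of mitochondrial DNA, and fragments from the copies and from the mitochondria could not be told apart here. Without the peaks over these pseudogenes the density ratios and the median ranks by total signal stayed within their intervals in all 6 lists.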

How the data were processed

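CUT&Tag peak lists of 6 IMR90 libraries were analysed, 1 per antibody and condition. Per the submitters' processing notes and the methods of the study, the authors mapped reads to GRCh38 with Bowtie2 2.3.4.1, used reads of E. coli for calibration and called peaks in each library with SEACR 1.3 in its stringent mode, keeping the top 1%. The methods keep only CTCF peaks with a motif, and whether the deposited lists were filtered so is not clear. The deposited values are signal, namely coverage summed over each peak (total signal) and its highest coverage. All of these were whole numbers, and a common scale between lists is not known, so signal was used only as a percentile within its own list. The read depth per library is unknown here beyond a minimum in the methods.

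Groups came from the sample titles, and p number 34, the highest, was assigned to senescence from the series design text, which names 1 such sample for either antibody. The summit was the midpoint of the region of highest signal. Peaks were linked when summit windows of 100 bp overlapped by at least 1 bp. Assembly gaps other than the 5 short-arm windows were not taken out of lengths. Gene positions were RefSeq (GRCh38.p14), and 676 genes on other scaffolds were left out. Promoter sequences of chromosome 8 were not analysed here. The 5′ ends came from the RefSeq promoter table or, for genes without an entry, from the strand in GENCODE v44 by symbol and chromosome, which gave 45059 of 56080 genes (80.3%) and 99.0% of protein-coding genes. Shares and density ratios carry exact Clopper-Pearson intervals, densities exact Poisson intervals and medians order-statistic intervals, computed with Python 3.11.15, NumPy 2.4.6, pandas 2.3.3 and SciPy 1.17.1. The steps were tested on simulated data. No test between conditions was possible with 1 library per group.

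The members and lists were chosen with earlier results of these data known. For each antibody the rule for named loci took the 3 highest by mean percentile of total signal in all 3 lists and the 2 highest of each other class, the 5 peaks closest to an end and the 3 richest ends. Alternatives were windows of 500 kb and 2 Mb, lists of equal length, whole-peak overlap, peaks under 1 kb apart joined, rank by highest signal, pseudogene peaks of 1p left out, promoters within 2 kb and protein-coding genes only.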

Additional observations from a re-analysis of the deposited data

Results flagged for a closer look

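Some changes from control went opposite ways for the 2 antibodies, each from 1 library per group, and these differences were not tested. The number of subtelomeric peaks in the senescent list minus that in the control list was 96 for CTCF and -24 for SMC1. Interior peaks changed in the same directions, from 4500 to 8276 for CTCF and from 14364 to 12513 for SMC1. The density ratio was higher in the senescent list for both, 1.77 against 1.71 for CTCF and 1.83 against 1.71 for SMC1, with overlapping intervals. The density ratio of subtelomeric to interior peaks in the ICM list minus that in the control list was 0.14 for CTCF and -0.24 for SMC1. The median percentile of total signal in the ICM list minus that in the control list was 1.72 for CTCF and -1.33 for SMC1, which is small beside the intervals of the medians.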

How the results depend on the processing

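With 1 library per group no replicate could be left out. No paired analysis was possible because each group had 1 library. Of 148 values under alternatives, 104 stayed within the main value's own interval, 44 did not, and no density ratio crossed 1. With a window of 500 kb the density ratio was 1.25 and 1.49 for CTCF in the control and ICM lists and 1.44, 1.25 and 1.60 for SMC1 in the control, ICM and senescent lists, and in the CTCF control list its interval, 0.887 to 1.71, included 1. With 2 Mb it was 2.22 and 2.14 for CTCF in the control and senescent lists. That window gave a density per protein-coding gene, relative to the interior, of 0.878, 0.830 and 0.846 for CTCF in the control, ICM and senescent lists, still below 1, and 58.8% of CTCF ICM peaks in the control list. The window of 500 kb gave a median rank of 42.8 for SMC1 in the ICM list, 28.1% of senescent CTCF peaks in all 3 lists (against 35.7% inside) and 24.7% with an SMC1 peak (against 35.1%). Ranked by highest signal, the SMC1 medians were 39.9, 41.3 and 40.0 in the control, ICM and senescent lists.

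Linking whole peaks raised every share, by its own construction. In the control, ICM and senescent lists the share in all 3 lists was then 87.7%, 56.4% and 48.0% for CTCF and 56.3%, 54.4% and 60.3% for SMC1, and that of CTCF peaks with an SMC1 peak 67.9%, 63.6% and 50.5%. Inside, the share in all 3 lists was 87.3%, 60.3% and 49.1% for CTCF and 56.6%, 47.9% and 64.8% for SMC1. For SMC1 in the ICM list the interior value lay below the subtelomeric interval (49.0 to 59.7), and in the other lists within it. Of ICM peaks, 61.8% of CTCF and 72.4% of SMC1 were then in the control list and 78.2% and 61.3% in the senescent list. Lists of equal length gave 44.3% and 45.2% of control and senescent CTCF peaks in all 3 lists, against 50.2% inside for both. For senescent SMC1 peaks they gave 30.5% (25.4 to 35.9), with the interior value of 38.1% above this interval. They also gave 41.3% of senescent CTCF peaks with an SMC1 peak, against 45.2% inside. They also turned an order, since 65.1% of CTCF ICM peaks were then in the control list and 53.8% in the senescent list, while 47.8% of SMC1 ICM peaks were in the senescent list. Promoter shares within 2 kb were 50.3% for CTCF in the ICM list and 54.3%, 49.3% and 52.4% for SMC1 in the control, ICM and senescent lists, and with protein-coding genes only the latter were 41.0%, 35.04% and 39.7%. Why these values differ from the main ones was otherwise not tested. Joining peaks, leaving out the pseudogene peaks of 1p and leaving out each chromosome end in turn, the last of which was added after seeing the data as were the windows for the density per gene, kept every value within its interval. The lists hold only the top 1% of regions of each library, read depth is unknown, and counts per end or in the outermost 100 kb are too small to show modest differences.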
